A study of Mus musculus with 16 samples.

Results

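The Myc, Max and Mxd network is a set of basic helix-loop-helix leucine zipper transcription factors that pair with each other and bind the E-box, the DNA letters CACGTG. The network was taken as 10 listed genes, of which 8 were analysed among the 13652 genes of the count files: Myc, Max, Mxd1, Mxd3, Mxd4, Mxi1, Mnt and Mlx. Mycn and Mycl, the other Myc paralogs on the list, were not analysed here. All 8 passed the filter on low counts, which removed 0 genes.

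Myc needs Max as its partner to bind DNA, and the Myc-Max pair activates genes of ribosome assembly, metabolism and growth. Mxd1, Mxd3, Mxd4, Mxi1 (also called Mxd2) and Mnt compete for the same partner and bring Sin3 corepressors with histone deacetylases to the same DNA letters, which is why they are called Myc antagonists. Mlx is a second partner, which pairs with some Mxd proteins, with Mnt and with the glucose-sensing Mondo proteins, and in myeloid cells a change of partner for Max from Myc to Mxd1 is a classical mark of differentiation.

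Transcripts were counted by RNA sequencing in AML246, a mouse line of acute myeloid leukaemia kept in medium with serum and interleukin-3. By the series title, the drug schedule restores PU.1, which is the product of Spi1 and a regulator of myeloid fate, and then returns it to knockdown. The 8 groups of 2 libraries (replicates A and B) were an untreated start at day 0; 4, 8 and 12 days on doxycycline at 0.1 µg/mL; Cd11b-high cells sorted after 12 days; and cells 4, 8 and 12 days after the drug was withdrawn, at course days 16, 20 and 24. Groups other than the Cd11b-high sort are total viable cells, also obtained by sorting, and all groups come from the 1 line. The construct that doxycycline controls is not given in the labels. Nothing states that replicates A and B came from separate cultures, so a p-value measures only the spread between these libraries, which may be technical. Day of the course and treatment moved together and cannot be told apart.

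Total counts ran from 12962801 to 26509803 per library, and a member had between 48 reads (Mxd3) and 9887 reads (Myc) in a library. Spi1 followed the schedule, at 239 ± 13.8 CPM after 4 days of doxycycline against 61.5 ± 6.69 CPM in untreated cells, and at 60.8 ± 5.91 CPM 4 days after withdrawal against 222 ± 4.72 CPM after 12 days of the drug (SD, n = 2 each; CPM, counts scaled to the normalised library size). The replicates 12 days after withdrawal differed most, with a chi-square per gene of 73.5 between A and B, against 2.97 to 18.9 in the other groups. In the main comparisons with that group, the members and the counts of Myc-activated genes were therefore also checked without each of its libraries. The other gene lists at that time rest on the fit of all libraries and were not checked in this way. Mitochondrial genes took 7.36% and 6.35% of counts in untreated libraries and 2.01% to 3.59% in the others. Myeloid marker lists moved with the drug in differing directions. Summed, 9 measured neutrophil markers stood at 2290 to 2915 CPM after 4 days of doxycycline against 35.7 to 45.2 CPM in untreated cells. All 9 were called higher. Of 9 eosinophil markers 2 were higher and 5 lower at 4 days (summed level 212 to 252 CPM against 2079 to 5181 CPM in untreated cells), and 8 were higher and 0 lower than in untreated cells at 12 days (8311 to 9260 CPM). Of 7 basophil and mast cell markers 0 were higher and 6 lower at 4 days, and 4 and 2 at 12 days. Of 5 azurophil granule markers 3 were higher and 2 lower at 4 days, and 1 and 4 at 12 days. At 4 days their summed level was 1056 to 1061 CPM, and at 12 days 184 to 206 CPM. In untreated cells it was 1234 to 1478 CPM. Of 8 macrophage and monocyte markers 6 were higher and 1 lower at 4 days, and 5 and 0 at 12 days. Beside these counts, 28.2% of all genes were higher and 31.0% lower at 4 days, and 30.0% and 33.4% at 12 days. The part of these markers in the results on the network was not tested.

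The E-box itself stands in the promoters of several members, which is why these stretches are shown. In RefSeq promoter windows of GRCm38.p6 (250 bases before to 50 after a start site), 7 of the 8 members had a window (all but Myc), and those of Max, Mlx, Mnt and Mxd4 held CACGTG, which reads the same on both strands. The capitals mark the E-box in 46 bases of the gene's own strand.
Max, chr12:76962226-76962271, minus strand: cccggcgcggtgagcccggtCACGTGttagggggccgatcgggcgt
Mlx, chr11:101087230-101087275, plus strand: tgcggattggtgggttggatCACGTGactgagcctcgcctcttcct
Mnt, chr11:74830781-74830826, plus strand: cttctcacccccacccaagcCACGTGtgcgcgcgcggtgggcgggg
Mxd4, chr5:34187904-34187949, minus strand: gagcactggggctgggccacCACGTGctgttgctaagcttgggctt

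The first letter of the E-box lies 3 bases before the window's start site in Max, 40 in Mlx, 123 in Mnt and 219 in Mxd4. That site is not the outer start of the gene in Max, Mlx and Mnt. The Mlx gene begins at 101086707 and the minus-strand Max gene at 76962323, so both printed stretches lie inside the gene. The Mnt gene begins at 74830806, within its printed stretch. The bases just after the window's start site in Max were not found in the GENCODE transcripts of Max, unlike those of Mlx, Mnt and Mxd4. The distance in Max therefore rests on the RefSeq window alone. These letters occurred in 7.15% of all 32851 promoter windows and in 11.6% of the 10257 genes of the count files that have one. The windows of Mxd1, Mxd3 and Mxi1 held no CACGTG. A match is a description of the letters and not evidence that a factor binds there.

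Myc had the widest range of the members in CPM, while as a fold between the highest and the lowest library the range of Mxd3 was wider. Myc (chromosome 15, 61985341 to 61990361) stood at 334 and 343 CPM in the untreated libraries, at 95.0 and 92.0 CPM after 4 days of doxycycline, at 137 and 140 CPM after 8 days and at 186 and 180 CPM after 12 days. After withdrawal it stood at 196 and 209 CPM at 4 days, at 346 and 388 CPM at 8 days and at 459 and 451 CPM at 12 days. The lowest libraries were those of day 4, the level was already higher on later days of treatment, and no library on the drug reached an untreated one.

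Myc fell to 0.276 of the untreated level in the first 4 days (log2 fold -1.86, SE 0.10, edgeR adjusted p = 1.01e-09). Still under doxycycline, its level was higher at 8 days than at 4 days (log2 fold 0.57, SE 0.09, edgeR adjusted p = 0.00118). It was higher again at 12 days than at 8 days (log2 fold 0.40, SE 0.09, edgeR adjusted p = 0.0355), a call that was lost with library size alone as the scaling (0.098) and on leaving out any 1 of the 4 libraries (0.167 to 0.329). A direct comparison of 12 with 4 days, added after seeing the data, gave a log2 fold of 0.97 (SE 0.09, edgeR adjusted p = 5.22e-06). At 12 days Myc was still lower than in untreated cells (log2 fold -0.89, SE 0.09, edgeR adjusted p = 1.29e-06).

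Spi1 was not called over the same interval, with a log2 fold between 12 and 4 days of doxycycline of -0.10 (SE 0.15, edgeR adjusted p = 0.644). Proliferation markers were higher after 12 days, when Myc was lower than in untreated cells. The summed level of 11 of them was 4053 to 4066 CPM after 12 days against 2681 to 2729 CPM in untreated cells, with 6 called higher and 0 lower, against 30.0% and 33.4% of all genes. At 12 days off against 12 days of the drug, where Myc was higher, 1 of the 11 was higher and 7 were lower (2583 to 2589 CPM at 12 days off), against 32.9% and 32.4% of all genes. Their part in the level of Myc was not tested. In these bulk libraries fewer cells of a type and less RNA per cell cannot be told apart.

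**Figure D1:**
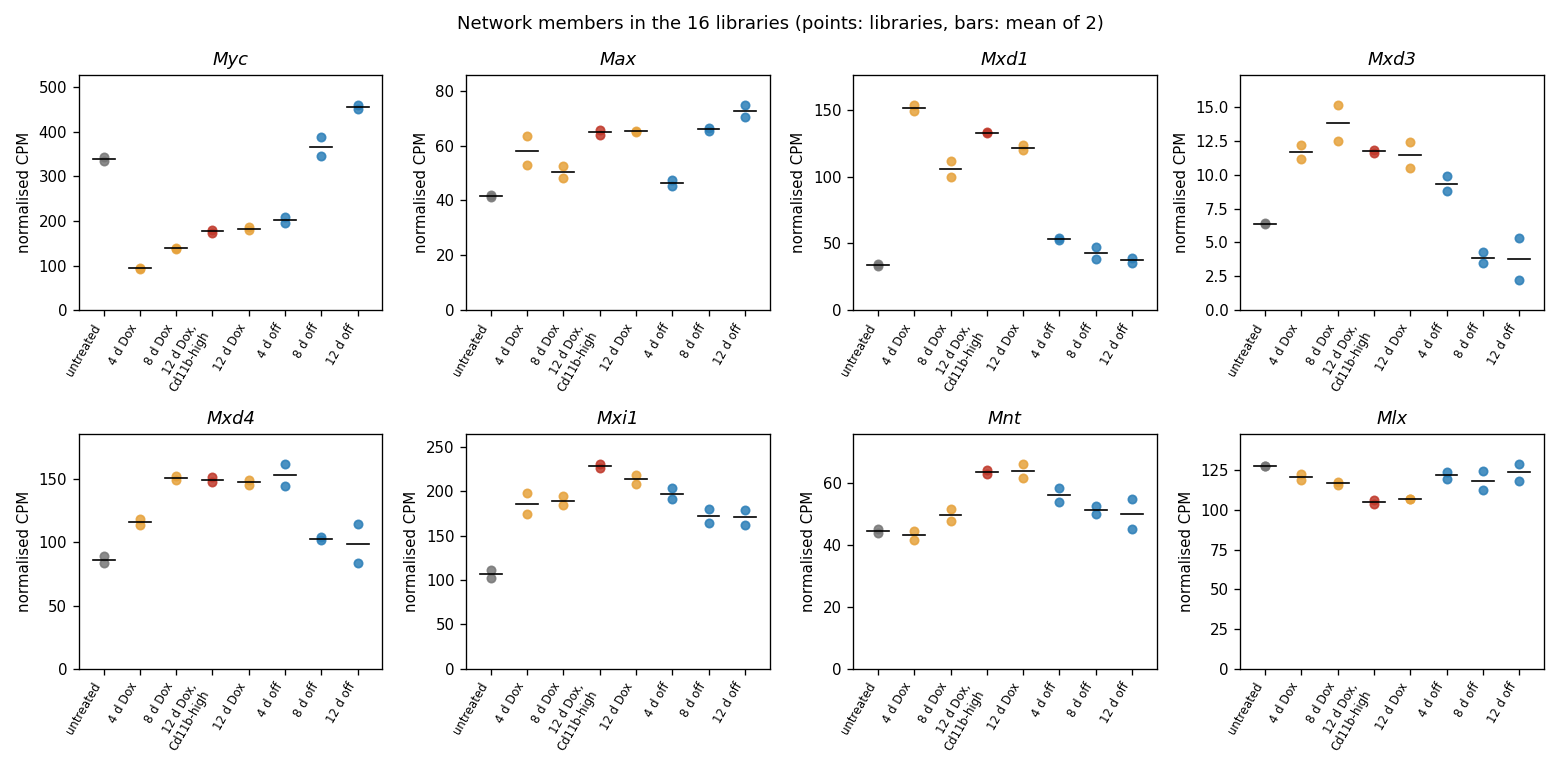
Normalised CPM of the 8 members in each library, with the groups from left to right along the course and the Cd11b-high sort just left of the total cells of the same day; bars are means of 2. Myc has its lowest points after 4 days of doxycycline (95.0 and 92.0 CPM), where Mxd1 has its highest (149 and 153 CPM), and the libraries 12 days off lie apart for Mxd3 and Mxd4.

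Mxd1, the antagonist induced in differentiating myeloid cells, had its highest level in the libraries where Myc had its lowest. Mxd1 (chromosome 6, 86647044 to 86669234) stood at 34.1 and 33.05 CPM in untreated cells, at 149 and 153 CPM after 4 days of doxycycline, at 99.7 and 112 CPM after 8 days and at 120 and 124 CPM after 12 days. After withdrawal it stood at 53.6 and 52.4 CPM at 4 days, 47.0 and 38.1 CPM at 8 days and 35.2 and 39.3 CPM at 12 days. The treated libraries lie well above all others, with no overlap.

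Against untreated cells Mxd1 rose 4.49-fold at 4 days (log2 fold 2.17, SE 0.11, edgeR adjusted p = 1.15e-09) and 3.62-fold at 12 days (log2 fold 1.86, SE 0.11, edgeR adjusted p = 6.1e-09). It was lower at 8 days than at 4 days (log2 fold -0.51, SE 0.11, edgeR adjusted p = 0.00552), a call lost without the 8-day replicate A (0.0702). So Myc and Mxd1 both stood nearer to their untreated levels at 8 days than at 4 days.

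Mxi1, a second antagonist, rose at the first step and stayed high. Mxi1 (chromosome 19, 53310128 to 53373293) stood at 174 and 198 CPM after 4 days of doxycycline against 102 and 111 CPM in untreated cells (log2 fold 0.80, SE 0.10, edgeR adjusted p = 1.13e-05). By 12 days it stood at 219 and 208 CPM (log2 fold 0.998 against untreated cells, SE 0.10, edgeR adjusted p = 1.2e-06). The untreated libraries are the lowest of the 16, and no other group overlaps them.

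Mxd4, an antagonist found in many differentiated tissues, was higher than in untreated cells at 4 days and at 12 days. Mxd4 (chromosome 5, 34176580 to 34187710) stood at 113 and 118 CPM after 4 days of doxycycline against 88.9 and 83.7 CPM in untreated cells (log2 fold 0.42, SE 0.12, edgeR adjusted p = 0.0086). It stood at 149 and 152 CPM after 8 days and at 150 and 145 CPM after 12 days (log2 fold 0.77 at 12 days against untreated cells, SE 0.12, edgeR adjusted p = 7.6e-05). The 4-day libraries lie between the untreated ones and those of 8 and 12 days of doxycycline. The 4-day call was lost without untreated replicate B (0.0605).

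Mnt, an antagonist present in dividing and resting cells alike and one of the 4 members with an E-box in its window, was called at 12 days but not at 4 days. Mnt (chromosome 11, 74830806 to 74845725) stood at 41.6 and 44.5 CPM after 4 days of doxycycline against 44.0 and 45.0 CPM in untreated cells, which overlap (log2 fold -0.05, SE 0.11, edgeR adjusted p = 0.727). By 12 days it stood at 66.0 and 61.7 CPM, above both untreated libraries (log2 fold 0.52, SE 0.11, edgeR adjusted p = 0.000686). Between 12 and 4 days its log2 fold was 0.57 (SE 0.11, edgeR adjusted p = 0.00151).

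Mxd3, a family member described in dividing cells, was the least abundant. Mxd3 (chromosome 13, 55325170 to 55329900) stood at 12.2 and 11.2 CPM after 4 days of doxycycline against 6.36 and 6.42 CPM in untreated cells (log2 fold 0.87, SE 0.26, edgeR adjusted p = 0.00905). By 12 days it stood at 12.4 and 10.5 CPM (log2 fold 0.84 against untreated cells, SE 0.26, edgeR adjusted p = 0.0106). Both calls were lost without untreated replicate A (0.0571 at 4 days and 0.061 at 12 days), and the 12-day call also without untreated replicate B (0.05004) or 12-day replicate A (0.0719).

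Of the partners, Max was called higher at 4 and 12 days and Mlx lower at 12 days. Max (chromosome 12, 76937269 to 76962323), needed by Myc and its antagonists alike, stood at 52.7 and 63.4 CPM after 4 days of doxycycline against 42.0 and 41.1 CPM in untreated cells (log2 fold 0.48, SE 0.10, edgeR adjusted p = 0.000969). By 12 days it stood at 64.9 and 65.5 CPM (log2 fold 0.65, SE 0.10, edgeR adjusted p = 6.83e-05). All treated libraries of Max lie above the untreated ones. Mlx (chromosome 11, 101086707 to 101092207) stood at 107 and 107 CPM after 12 days against 128 and 128 CPM in untreated cells (log2 fold -0.26, SE 0.09, edgeR adjusted p = 0.0233), a call lost with RLE factors (0.0701), DESeq2 (0.0521) and each library left out (0.0637 to 0.097).

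By count, 5 of 8 members were higher and 1 was lower after 4 days of doxycycline than in untreated cells. Of all 13652 genes 28.2% were called higher and 31.0% lower in that comparison. After 12 days 6 members, the 5 antagonists and Max, were higher and 2 lower than in untreated cells, against 30.0% and 33.4% of all genes. The members' median log2 fold was 0.45 at 4 days and 0.71 at 12 days, beside -0.05 and -0.07 over all genes. At 8 days against untreated cells 5 members were higher and 1 lower, with 57.3% of all genes called in either direction. The Max call among these 5 (log2 fold 0.27, edgeR adjusted p = 0.036) was lost with library size alone (0.0687) and without untreated replicate A (0.0832) or B (0.115) or 8-day replicate B (0.208). These comparisons share the untreated libraries.

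Step by step under the drug fewer members moved. From 4 to 8 days Myc was higher and Mxd1 lower, with 13.9% of genes called. Mxd4 was not called in that step, but it was called higher under 5 of the 11 alternatives. Its log2 fold there ran from 0.33 to 0.42 over the settings. From 8 to 12 days Myc was the 1 member called, with 2.24% of genes called. From 4 to 12 days Myc, Mxd4 and Mnt were higher and Mxd1 lower, with 27.0% of genes called. The Mxd1 and Mxd4 calls of this last comparison were each lost on leaving out any 1 of its 4 libraries. In all, the Mxd4 call was lost under 5 of the 11 alternatives. Over the settings the log2 fold ran from -0.45 to -0.29 for Mxd1 and from 0.21 to 0.38 for Mxd4. Over the whole course 7 of 8 members differed between groups, Mlx being the exception (edgeR adjusted p = 0.0929), against 83.8% of all genes.

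**Figure D2:**
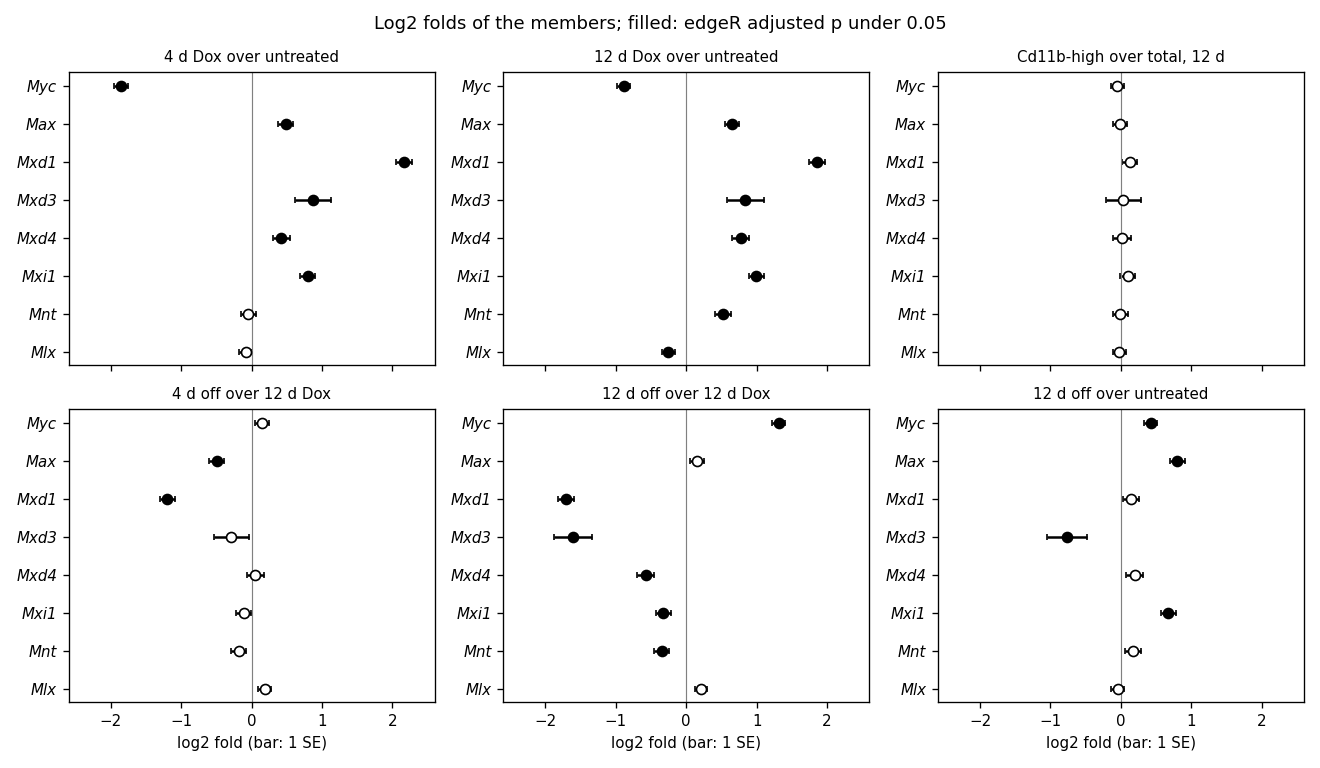
Log2 folds of the 8 members in the 6 main comparisons, each as the first-named group over the second, with bars of 1 SE and filled points for an edgeR adjusted p under 0.05. Myc lies left of 0 and Mxd1 right of 0 after 4 days of doxycycline (-1.86 and 2.17), the sides are exchanged 12 days after withdrawal against 12 days of the drug (1.31 and -1.71), and no point is filled for the sort.

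The Cd11b-high sort asked whether the cells richest in this maturation marker differ from all viable cells after 12 days of doxycycline. Itgam, which encodes Cd11b, had 884 and 940 CPM in Cd11b-high cells against 719 and 670 CPM in total cells, which was not called (edgeR adjusted p = 1). Myc stood at 181 and 173 CPM in Cd11b-high cells against 186 and 180 CPM in total cells, which overlap (log2 fold -0.05, SE 0.09). Mxd1 stood at 132 and 134 CPM in Cd11b-high cells against 120 and 124 CPM in total cells (log2 fold 0.13, SE 0.11).

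In this comparison 0 of 8 members were called, and the members' log2 folds ran from -0.05 to 0.13. Of all genes 0.00% were called higher and 0.0146% lower by edgeR, with 309 genes at an unadjusted p under 0.05, and DESeq2 called 0 higher and 11 lower. The lowest unadjusted p among the members was 0.254 (Mxd1). No difference in the network was detectable between the sort and total cells with 2 libraries of each.

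After withdrawal Mxd1 and Max were called by 4 days, and Myc was not. At 4 days off, Mxd1 had 53.6 and 52.4 CPM against 120 and 124 CPM after 12 days of doxycycline (log2 fold -1.20, SE 0.11, edgeR adjusted p = 1.56e-06). Max had 47.3 and 45.1 CPM at 4 days off against 64.9 and 65.5 CPM after 12 days of the drug (log2 fold -0.50, SE 0.10, edgeR adjusted p = 0.00185). Myc had 196 and 209 CPM at 4 days off against 186 and 180 CPM, a log2 fold of 0.15 (SE 0.09) that was not called (edgeR adjusted p = 0.227).

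Spi1 was not called against untreated cells by then (log2 fold -0.02 at 4 days off against untreated cells, SE 0.15, edgeR adjusted p = 0.936). Myc was lower than in untreated cells, at a log2 fold of -0.74 (SE 0.09, edgeR adjusted p = 3.46e-05). Mxd4, Mxi1 and Mxd1 also stood above untreated cells at 4 days off, with log2 folds of 0.83, 0.89 and 0.66, each with an SE of at most 0.13 and an edgeR adjusted p of at most 0.000432. At 4 days off, 0 members were higher and 2 lower than after 12 days of the drug, against 18.0% and 18.8% of all genes. Library size alone as the scaling moved the median of all genes to a log2 fold of 0.15, and Myc (0.26) and Mlx (0.30) were then called higher. Against untreated cells 4 members were higher and 1 lower at 4 days off, with 37.9% of all genes called. The fourth was Mnt (log2 fold 0.34, SE 0.11, edgeR adjusted p = 0.0258), a call lost without untreated replicate A (0.107) or B (0.0731) or replicate A of 4 days off (0.139).

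The step from 4 to 8 days off held most of the return of Myc. Myc had 346 and 388 CPM at 8 days off against 196 and 209 CPM at 4 days off (log2 fold 0.86, SE 0.09, edgeR adjusted p = 1.82e-05). Mxd4 had 102 and 104 CPM at 8 days off against 145 and 162 CPM at 4 days off (log2 fold -0.57, SE 0.12, edgeR adjusted p = 0.00395). Mxd3 had 3.48 and 4.28 CPM at 8 days off against 9.94 and 8.78 CPM at 4 days off (log2 fold -1.27, SE 0.27, edgeR adjusted p = 0.00366). In none of the 3 do the groups overlap. The Mxd3 call was lost without replicate A of 8 days off (0.0506).

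In the same step Max was higher (log2 fold 0.51, SE 0.10, edgeR adjusted p = 0.00247), and Mxd1 lower by a narrow margin (log2 fold -0.32, SE 0.11, edgeR adjusted p = 0.04997). The Mxd1 call was lost under 5 of the 11 alternatives, with adjusted p-values of 0.0621 to 0.403. In all, 2 members were higher and 3 lower at 8 than at 4 days off, with 24.0% of genes called. Against untreated cells Myc was not called at 8 days off (log2 fold 0.12, SE 0.09, edgeR adjusted p = 0.353), with 3 members higher (Max, Mxd1 and Mxi1), 0 lower and 33.1% of genes called. The Mxd1 call (log2 fold 0.34, edgeR adjusted p = 0.0312) was lost without untreated replicate A (0.0937) or B (0.1203) or replicate A of 8 days off (0.332), and Mxd3 was called lower with the 4 libraries alone (0.01015) and with the replicate block (0.0469). From 8 to 12 days off 0 members were called, with 3.71% of genes called, 3573 genes at an unadjusted p under 0.05, and a log2 fold of 0.31 for Myc (SE 0.09, edgeR adjusted p = 0.0691; 0.01 by DESeq2).

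At 12 days off Myc was higher and all 5 antagonists were lower than after 12 days of doxycycline. Myc had 459 and 451 CPM at 12 days off against 186 and 180 CPM after 12 days of doxycycline (log2 fold 1.31, SE 0.09, edgeR adjusted p = 2.23e-08). Mxd1 had 35.2 and 39.3 CPM at 12 days off against 120 and 124 CPM (log2 fold -1.71, SE 0.11, edgeR adjusted p = 9.62e-09). Mxd3 had 5.35 and 2.19 CPM at 12 days off against 12.4 and 10.5 CPM (log2 fold -1.61, SE 0.27, edgeR adjusted p = 9.17e-05). All 3 calls held under every one of the 11 alternatives, those that leave out a library included.

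The other antagonists fell by less: Mxd4 by 0.58 on the log2 scale, Mnt by 0.35 and Mxi1 by 0.32 (edgeR adjusted p = 0.000854, 0.01001 and 0.0123). The Mxi1 and Mnt calls were lost with library size alone (0.073 and 0.0628), with the 4 libraries alone (0.105 and 0.127) and without 12-day doxycycline replicate A (0.0837 and 0.0799), the Mnt call also without replicate A of 12 days off (0.0656), and the Mxd4 call with the 4 libraries alone (0.0596). By count 1 member was higher (Myc) and 5 lower than after 12 days of the drug, against 32.9% and 32.4% of all genes. Without replicate A of 12 days off the counts were 1 and 4, and without replicate B 2 and 5.

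Against untreated cells Myc, Max and Mxi1 were higher at 12 days off. Myc had 459 and 451 CPM at 12 days off against 334 and 343 CPM in untreated cells (log2 fold 0.43, SE 0.09, edgeR adjusted p = 0.00186). Max had 70.6 and 74.6 CPM at 12 days off against 42.0 and 41.1 CPM in untreated cells (log2 fold 0.80, SE 0.10, edgeR adjusted p = 2.68e-05). Mxi1 had 162 and 179 CPM at 12 days off against 102 and 111 CPM in untreated cells (log2 fold 0.67, SE 0.10, edgeR adjusted p = 0.000129). The groups do not overlap for any of these 3, and Max and Mxi1 were called under all 11 alternatives, while the Myc call was lost with the 4 libraries alone (0.143).

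Mxd1 was not called against untreated cells at 12 days off (log2 fold 0.15, SE 0.11, edgeR adjusted p = 0.311). Mxd3 was lower than in untreated cells (log2 fold -0.77, SE 0.28, edgeR adjusted p = 0.0392), which rests on replicate B of 12 days off: without it the log2 fold was -0.18 (edgeR adjusted p = 0.484). The call was also lost with RLE factors (0.0539), with only genes of a mean of at least 1 CPM (0.0568), with the 4 libraries alone (0.218) and without untreated replicate A (0.129) or B (0.113). Mxd4 (log2 fold 0.20), Mnt (0.17) and Mlx (-0.05) were not called. Without replicate A of 12 days off, Mxd4 (0.41, edgeR adjusted p = 0.00203) and Mnt (0.30, edgeR adjusted p = 0.0198) were called higher. By count 3 members were higher and 1 lower at 12 days off, against 21.6% and 22.0% of all genes; without replicate A of that time the counts were 5 and 1, and without replicate B 3 and 0.

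Set against each other on a length-scaled level (RPKM, normalised CPM per kilobase of the deposited gene length), Myc stood above the sum of its antagonists in 3 of the 8 groups and below it in the other 5. On CPM, without the length scaling, Myc had a mean of 367 CPM at 8 days off. Beside it Mxi1 had 172, Mxd4 103, Mnt 51.3, Mxd1 42.5 and Mxd3 3.88 CPM, so on the means Myc was not above their sum there. The libraries were split. In replicate A Myc had 346 CPM beside 180, 102, 52.7, 47.0 and 3.48 CPM in the same order, below their sum. In replicate B it had 388 CPM beside 164, 104, 49.9, 38.1 and 4.28 CPM, above their sum. In untreated cells Myc led the members at 141 ± 2.81 RPKM, before Mxd4 (73.2 ± 3.12 RPKM) and Mlx (64.6 ± 0.0566 RPKM), with Max at 20.7 ± 0.329 RPKM (SD, n = 2). After 4 days of doxycycline Mxd4 led at 98.2 ± 2.85 RPKM and Myc stood at 39.0 ± 0.879 RPKM, behind Mlx (61.1 ± 1.28 RPKM). Mxi1 (33.1 ± 2.97 RPKM), Mxd1 (32.4 ± 0.649 RPKM) and Max (29.0 ± 3.78 RPKM) followed, and these 3 neighbours do not differ beyond their spread.

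After 8 days of the drug Mlx (59.1 ± 0.678 RPKM) and Myc (57.7 ± 0.717 RPKM) were close, and after 12 days Myc (76.3 ± 1.83 RPKM) stood above Mlx (54.1 ± 0.045 RPKM). At 8 and 12 days off Myc led again, at 153 ± 12.3 and 190 ± 2.51 RPKM. In each of the 8 groups Mxd3 had the lowest mean level of the 8 members, although Mnt and Mxd3 lie within their spread at 4 and 8 days of doxycycline (9.38 ± 0.446 RPKM for Mnt and 9.002 ± 0.524 RPKM for Mxd3 at 4 days).

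The level of Myc per summed level of Mxd1, Mxd3, Mxd4, Mxi1 and Mnt was 1.24 ± 0.0459 in untreated cells, 0.214 ± 0.0123 after 4 days of doxycycline, 0.281 ± 0.00234 after 8 days and 0.360 ± 0.000397 after 12 days (RPKM over RPKM, SD, n = 2 each). At 4, 8 and 12 days off it was 0.432 ± 0.00411, 1.08 ± 0.105 and 1.41 ± 0.240. In Cd11b-high cells it was 0.337 ± 0.0147 against 0.360 in total cells of that day. The ratio is a description with no test, and transcript levels do not give the amounts of protein. At 12 days off its libraries gave 1.58 and 1.24 and at day 0 they gave 1.20 and 1.27, so these groups overlap.

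**Figure D3:**
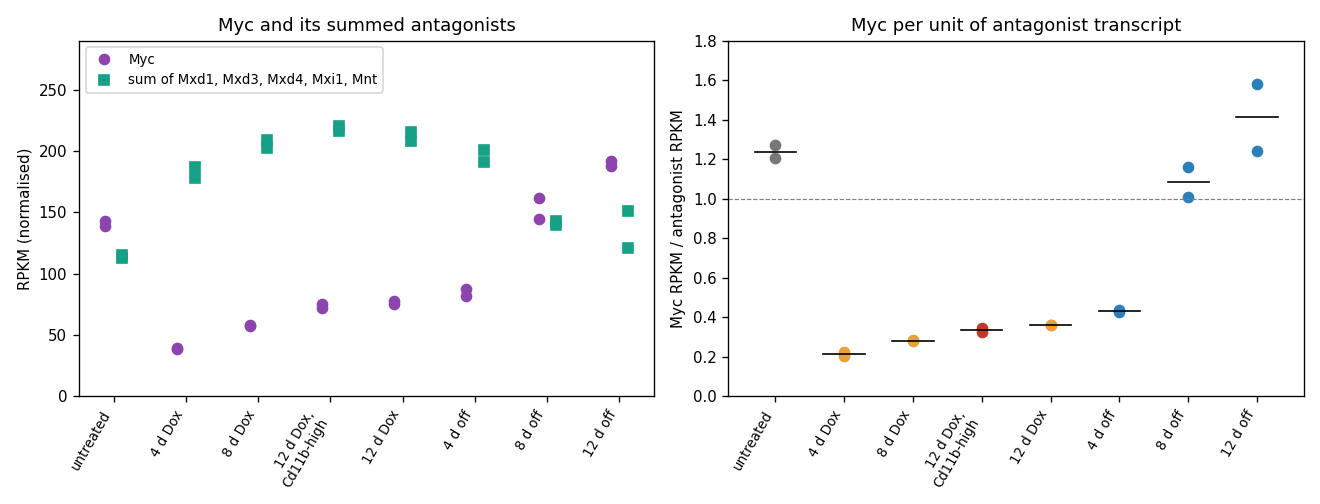
Left, RPKM of Myc (circles) and summed RPKM of its 5 antagonists (squares) in each library; right, their ratio, with bars at the mean of 2 libraries and a dashed line at 1. The ratio lies above 1 in untreated cells and at 8 and 12 days off, and between 0.205 and 0.435 in every library on doxycycline or 4 days off it.

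The sum of the antagonists was 114 ± 1.96 RPKM in untreated cells, 182 ± 6.39, 206 ± 4.27 and 212 ± 4.84 RPKM after 4, 8 and 12 days of doxycycline, and 196 ± 7.07, 141 ± 2.30 and 136 ± 21.3 RPKM at 4, 8 and 12 days off. Mxd4 made up 54.0% to 66.3% of the sum over the group means. Mxd1 made up 17.8% after 4 days of doxycycline against 6.32% in untreated cells, and 5.81% at 4 days off against 12.3% after 12 days of the drug. Mxd1 had 32.4 RPKM after 4 days of doxycycline against 7.21 RPKM in untreated cells. In that step Mxd4 had 98.2 against 73.2 RPKM and Mxi1 33.1 against 19.0 RPKM. At 4 days off Mxd1 had 11.4 RPKM against 26.1 RPKM after 12 days of the drug. Mxd4 then had 130 against 125 RPKM, while the sum was lower, and Mxi1 had 35.1 against 38.0 RPKM. So Mxd1, though a small share, moved in the direction of the sum at both steps, as did Mxi1 and Mxd3. Of these, only Mxd1 was called at the second step. Mxd4 moved with the sum at the first step. At the second its change was not called, and its log2 fold ran from -0.03 to 0.17 over the settings. Each antagonist is a part of the sum, so a shared direction is partly built in.

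**Figure D4:**
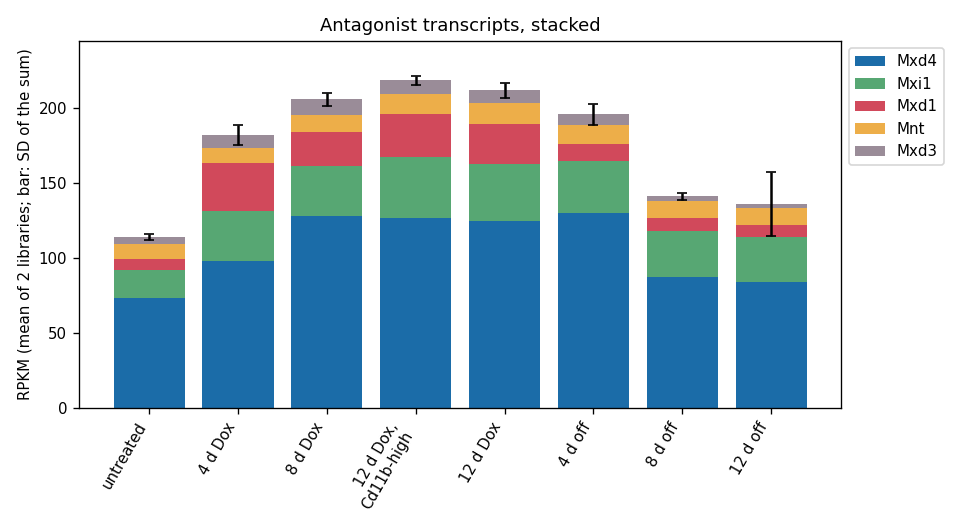
Mean RPKM of the 5 antagonists stacked for each group, with the SD of the sum as a bar. Mxd4 is the largest part everywhere, the Mxd1 part is widest after 4 days of doxycycline (32.4 RPKM), and the sum is lowest in untreated cells (114 RPKM).

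Genes that Myc is known to activate, 40 textbook targets all held by the files, followed Myc in direction at the first step. After 4 days of doxycycline 1 was higher and 33 were lower than in untreated cells, against 28.2% and 31.0% of all genes, with a median log2 fold of -0.99 beside -0.05 over all genes. Polr1b, a subunit of RNA polymerase I, had 18.2 ± 0.492 CPM after 4 days against 95.1 ± 9.42 CPM in untreated cells (log2 fold -2.38, edgeR adjusted p = 4.73e-10). Gnl3, which encodes the nucleolar protein nucleostemin, had 29.5 ± 2.43 CPM after 4 days against 156 ± 6.47 CPM in untreated cells (log2 fold -2.40, edgeR adjusted p = 6.61e-10).

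Nop56, of the box C/D small nucleolar particles, also fell (log2 fold -1.77, edgeR adjusted p = 1.91e-09). The 1 gene that rose was Cdc25a, a phosphatase that drives the cell cycle, named after its values were seen. After 12 days 4 of the 40 were higher and 22 lower than in untreated cells, against 30.0% and 33.4% of all genes, with a median log2 fold of -0.38 beside -0.07. From 4 to 8 days of doxycycline, where Myc was already higher, 16 of the 40 were higher and 0 lower, with 13.9% of all genes called in either direction and a median log2 fold of 0.34 beside 0.00. From 8 to 12 days, where Myc was again called higher, 0 of the 40 were called, with 2.24% of all genes called. Their median log2 fold in that step was 0.08 beside 0.00. The mitochondrial share was lower in the same comparisons against untreated cells, as given above, and its part was not tested.

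After withdrawal 18 of the 40 were higher and 2 lower at 4 days off than after 12 days of the drug, against 18.0% and 18.8% of all genes, at a time when Myc itself was not called. Their median log2 fold was 0.24 beside 0.04 over all genes. The count of 18 fell to 12 without the 12-day replicate A. Odc1, the first enzyme of polyamine synthesis, had 79.9 ± 0.296 CPM at 4 days off against 45.0 ± 2.77 CPM after 12 days of the drug (log2 fold 0.83, SE 0.10). Against 32.9% and 32.4% of all genes, 35 were higher and 3 lower at 12 days off than after 12 days of the drug, with a median log2 fold of 0.79 beside 0.00 (34 and 2 without replicate A of that time, 33 and 2 without replicate B), among them Gnl3 at 218 ± 10.1 CPM against 56.4 ± 4.99 CPM.

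Against untreated cells 26 of the 40 were higher and 1 lower at 12 days off, where 21.6% and 22.0% of all genes were, with a median log2 fold of 0.42 beside 0.00 over all genes. Ldha, lactate dehydrogenase A, had 2660 ± 445 CPM at 12 days off against 806 ± 131 CPM in untreated cells (log2 fold 1.72, SE 0.14, edgeR adjusted p = 5.91e-07). Ccnd2, cyclin D2, had 52.8 ± 9.59 CPM at 12 days off against 16.3 ± 2.65 CPM (log2 fold 1.71, SE 0.15), and Srm, spermidine synthase, had a log2 fold of 1.496 (SE 0.14). This count depended on the fit: it was 9 with the 4 libraries alone, 16 without untreated replicate A and 33 without replicate B of 12 days off. Of the 34 targets with a promoter window 29.4% held CACGTG, beside 11.6% of the genes in the files.

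**Figure D5:**
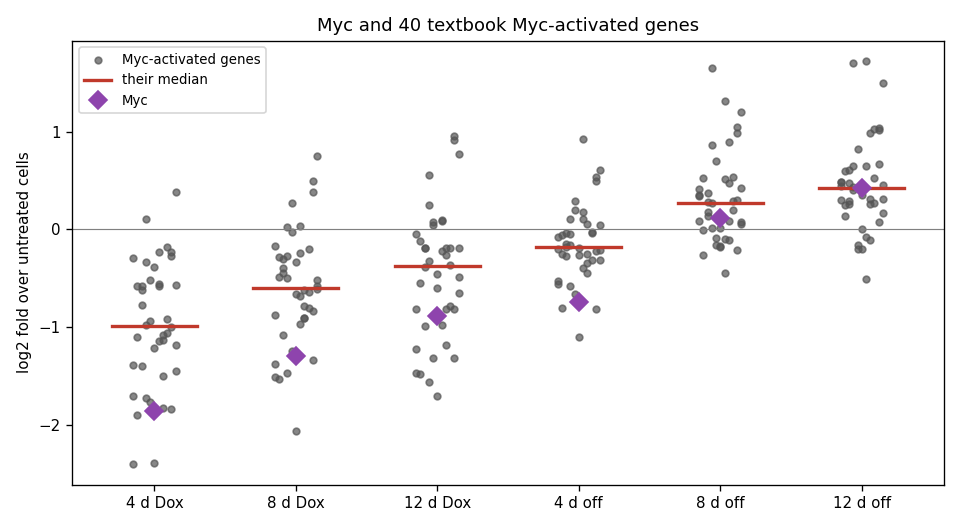
Log2 fold over untreated cells of Myc (diamonds) and of 40 textbook Myc-activated genes (points, spread sideways by symbol; line, median) at each time. Myc lies below the median of the list from 4 days of doxycycline to 8 days off, and the list's median is above 0 at 8 and 12 days off (0.27 and 0.42).

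Genes that Myc is known to hold down with Miz1 moved in both directions. Of 9 measured, 4 were higher and 3 lower after 4 days of doxycycline than in untreated cells, against 28.2% and 31.0% of all genes, and 4 and 2 after 12 days, against 30.0% and 33.4%. These counts lie near the share over all genes. Cdkn1a, the cell cycle inhibitor p21, rose to 57.2 CPM after 4 days against 27.1 CPM in untreated cells (log2 fold 1.07, SE 0.22), and Ndrg1, a stress-response gene, by a log2 fold of 1.54 (SE 0.30). Cdkn2c, the inhibitor p18, was at a log2 fold of 1.66 after 12 days (SE 0.18).

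At 4 days off, with Myc below its untreated level, 6 of these 9 were already higher and 2 lower than in untreated cells (median log2 fold 0.78). Of all genes 37.9% were called in either direction there. At 8 days off, where Myc was not called, 5 were higher and 1 lower (median 0.37), with 33.1% of all genes called. At 12 days off, with Myc above its untreated level, 7 were higher and 1 was lower than in untreated cells, against 21.6% and 22.0% of all genes. The median log2 fold was then 1.03 beside 0.00 over all genes. Cdkn1a had 87.3 CPM at 12 days off against 27.1 CPM (log2 fold 1.68, SE 0.22) and Ndrg1 94.9 CPM against 17.7 CPM (log2 fold 2.42, SE 0.31), both past the test. Gadd45a, a DNA damage response gene, was the lower one (log2 fold -1.19, SE 0.17). Against 12 days of doxycycline 3 of the 9 were higher and 3 lower at 4 days off, with 18.0% and 18.8% of all genes, and 5 higher and 2 lower at 12 days off, with 32.9% and 32.4%.

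Cofactors of Myc and factors of its turnover moved in both directions. Of 16, 1 was higher and 6 lower after 4 days of doxycycline than in untreated cells, and 2 and 8 after 12 days; at 12 days off 9 were higher and 4 lower than after 12 days of the drug, and 5 and 6 against untreated cells. The median log2 folds in these 4 comparisons were -0.21, -0.28, 0.41 and 0.02, beside -0.05, -0.07, 0.00 and 0.00 over all genes. Of all genes 28.2% were higher and 31.0% lower in the first of them, and 30.0% and 33.4% in the second. In the third these shares were 32.9% and 32.4%, and in the last 21.6% and 22.0%. Kat2a, the acetyltransferase Gcn5, had 62.0 ± 2.48 CPM after 4 days of doxycycline against 155 ± 4.46 CPM in untreated cells (log2 fold -1.32, SE 0.10). Ruvbl2, a chromatin remodelling ATPase, had 313 ± 57.5 CPM at 12 days off against 169 ± 5.86 CPM in untreated cells (log2 fold 0.89, SE 0.11), and Cip2a, which stabilises Myc protein, was lower (log2 fold -0.77, SE 0.10).

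Of 8 genes of the corepressor complexes used by Mxd proteins and Mnt, 3 were higher and 1 lower after 4 days of doxycycline than in untreated cells, against 28.2% and 31.0% of all genes, and 4 and 1 after 12 days, against 30.0% and 33.4%. Ncor1, a nuclear corepressor, had 492 ± 9.29 CPM after 12 days against 253 ± 12.0 CPM in untreated cells (log2 fold 0.96, SE 0.20), and Sin3a, the scaffold that Mxd proteins bind, had a log2 fold of 0.70 (SE 0.12). Sap30, a Sin3 complex subunit, was the lower one (log2 fold -1.04, SE 0.17). At 12 days off 2 of the 8 were higher and 4 lower than after 12 days of the drug, against 32.9% and 32.4% of all genes, and 2 and 0 against untreated cells, against 21.6% and 22.0%. With 8 genes these counts are too few to set the list apart from all genes.

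On the Mlx side, Mlxipl (ChREBP), a glucose-sensing partner of Mlx, was lower after 4 and 12 days of the drug. It had 14.5 ± 2.37 CPM after 4 days and 7.76 ± 0.240 CPM after 12 days, against 58.0 ± 3.84 CPM in untreated cells (log2 folds -2.00 and -2.90, SE 0.19 and 0.20, edgeR adjusted p = 4.89e-07 and 2.02e-08). At 12 days off it had 19.96 ± 5.11 CPM, still lower than in untreated cells (log2 fold -1.54, SE 0.19). Mlxip, the related MondoA, rose after 4 days (log2 fold 0.48, SE 0.19, edgeR adjusted p = 0.0381), and Mga, a Max-binding repressor, was not called in any of the 6 main comparisons. Of the 3 Mondo targets, Arrdc4, an arrestin-domain gene, had 128 CPM at 12 days off against 42.1 CPM in untreated cells (log2 fold 1.61, SE 0.14) and Txnip, an inhibitor of glucose uptake, a log2 fold of 0.48 (SE 0.13), both past the test, while Klf10 was not called.

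Genes with a pattern over the 8 group means close to that of Myc, or opposed to it, were ranked. Among 9098 genes with a symbol and a mean of at least 10 CPM, the 5 highest Pearson correlations of log2(CPM + 0.5) with Myc were those of Znhit6 (0.996), Rcc1l (0.995), Wdr43 (0.992), Gtf2h1 (0.992) and Utp14a (0.992). Znhit6 had a mean of 24.4 CPM in untreated cells, 8.31 CPM after 4 days of doxycycline and 30.1 CPM at 12 days off. The 5 lowest were S100a8 (-0.993), Adamtsl4 (-0.989), Stimate (-0.987), Sp4 (-0.987) and Zfyve27 (-0.985). S100a8, a calprotectin chain of neutrophils, had 5.74 CPM in untreated cells, 813 CPM after 4 days of doxycycline, 42.5 CPM after 12 days and 0.186 CPM at 12 days off.

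For Mxd1 the closest were Dcun1d3 (0.999), Castor2 (0.998), Cyfip1 (0.997), Plxnd1 (0.996) and Rab8b (0.996), and the most opposed were Six5 (-0.998), Tgif1 (-0.997), Tsr2 (-0.996), Qtrt1 (-0.996) and Dmwd (-0.995). These correlations are over 8 group means that share libraries, depth and 1 course, and they describe the pattern only. Castor2 had a mean of 6.63 CPM in untreated cells, 34.3 CPM after 4 days of doxycycline, 26.2 CPM after 12 days and 9.84 CPM at 4 days off.

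The counting does not state a strand, and exons of Mxd3 and Mlx overlap those of Prelid1 and Psmc3ip on the opposite strand, which the files also hold. Exons of Mxd4 and Mxi1 overlap the less known Gm42846 and Gm10197. Reads of these pairs may not be separable, so the levels of these 4 members are uncertain to that extent.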

How the data were processed

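The authors deposited 1 table for each of 16 libraries, with an Entrez number, a gene length and a raw read count per gene, per the file headers. RNA came from FACS-sorted pellets through a column kit and was sequenced on an Illumina NextSeq500, per the labels' protocols. featureCounts, edgeR, limma and the mm10 genome are named, without versions or roles, per the submitters' processing notes. The aligner and the strand setting are not given in the sources used here. Symbols for 13216 of 13652 genes and all coordinates came from RefSeq GRCm38.p6, the same build as mm10.

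Counts were normalised with TMM and fitted in edgeR 4.0.16 (limma 3.58.1, R 4.3.3) with 1 mean for each of 8 groups of 2 libraries. The quasi-likelihood F test with robust dispersions left 8 residual degrees of freedom, with a common biological coefficient of variation of 10.9%. A gene was called at a two-sided Benjamini-Hochberg adjusted p under 0.05 over all 13652 genes. filterByExpr removed 0 genes. Standard errors were taken as the log2 fold divided by the square root of F. RPKM divides normalised CPM by the deposited gene length.

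The members and the 6 gene lists, written from textbook knowledge, were chosen with earlier results of these data known. The plot of log2 folds shows every analysed member in each main comparison, while the text does not name every member in each of them. Each list names up to 3 genes with the lowest adjusted p and any gene said to be chosen after seeing values. Genes followed across comparisons are named beside these. The script was tested on simulated counts. Replicate letters were not used to pair samples in the main fit. The deviations of A from B correlated over 0.1 in 9 of 28 pairs of groups (-0.12 to 0.37, median 0.03). This does not settle whether some groups were paired. Alternatives were RLE factors, library size alone, no filter, a mean of at least 1 CPM, DESeq2 1.42.0, limma-voom, the 4 libraries alone, a fit with a replicate block and omission of each library in turn; a 12 against 4 day comparison, the promoter motif and the target counts under each setting were added after seeing the data.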

Additional observations from a re-analysis of the deposited data

Results flagged for a closer look

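The folds of several members against untreated cells differed between successive times of the same phase, tested directly as the later time over the earlier in the edgeR fit. Between 8 and 4 days of doxycycline the log2 fold was 0.57 for Myc (edgeR adjusted p = 0.00118) and -0.51 for Mxd1 (0.00552). Between 12 and 8 days of doxycycline it was 0.40 for Myc (edgeR adjusted p = 0.0355). Between 8 and 4 days off it was 0.86 for Myc (edgeR adjusted p = 1.82e-05), 0.51 for Max (0.00247), -0.32 for Mxd1 (0.04997), -1.27 for Mxd3 (0.00366) and -0.57 for Mxd4 (0.00395). With 2 libraries in each group no test for a library that stands apart was made.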

How the results depend on the processing

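Fitting with no filter is the same fit, since the filter removed 0 genes, and is not counted. Of 528 combinations of a member, a main comparison and 1 of the other 11 alternatives, 479 kept direction and side of the threshold, 26 lost a call, 10 gained one and 13 changed sign. The count of members called at 4 days off against 12 days of doxycycline was 4 with library size alone, against 2. With the 4 libraries alone it was 3, against 6, for 12 days off against 12 days of doxycycline, and 2, against 4, for 12 days off against untreated cells. For 2 of the comparisons the replicate block left the count at 6 (4 days of doxycycline against untreated cells, and 12 days off against 12 days of the drug), and it changed no other count of members in the main comparisons. It changed no call of a member in them.

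The log2 change of Myc per antagonists was -2.53 at 4 days of doxycycline against untreated cells (-2.72 on CPM, -2.70 with a geometric mean), -1.78 at 12 days (-1.89 and -1.88) and 1.97 at 12 days off against 12 days of the drug (2.26 with a geometric mean).

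Signs changed for uncalled folds. Library size alone gave -0.00067 for Mxd4 in Cd11b-high against total cells and 0.0043 for Mxi1 at 4 days off against 12 days of the drug. For Mlx at 12 days off against untreated cells RLE factors gave 0.0027, the 1 CPM filter 0.0034 and DESeq2 0.0025. Leaving out 1 library, the folds ran from -0.0643 to 0.0636 for Mnt at 4 days of doxycycline against untreated cells, from -0.028 to 0.132 for Mxd4 at 4 days off against 12 days of the drug and from -0.107 to 0.0914 for Mlx at 12 days off against untreated cells. In Cd11b-high against total cells they ran from -0.030 to 0.0121 for Max, -0.0789 to 0.16 for Mxd3, -0.0017 to 0.0385 for Mxd4 and -0.0573 to 0.0402 for Mnt. The cause of these changes was not tested. Depth limits Mxd3 most, with 48 reads in its lowest library.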
